A study of Danio rerio with 14 samples.

Results

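The genes described here encode the translation factors and the tRNA synthetases of the zebrafish embryo. They were found by symbol, and the members were chosen with earlier results of these data known. Taken were all genes on the array whose symbol begins with eif or eef and a digit, apart from the eif2ak kinases, together with those named as an aminoacyl-tRNA synthetase (the form aars1 or cars2, and eprs1). The rule gave 85 of the 8793 genes that had a probe set of their own on the array, 63 of them factors and 22 synthetases. Where a gene had several probe sets, the one with the highest mean signal stood for it.

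Ethanol treated embryos were kept in 100 mM (0.6%) ethanol for 6 h, beginning at 2 hours post fertilization (hpf), and control embryos from the same experiment were left untreated. Whole embryos of the TL strain were collected at 8 hpf, during gastrulation, and RNA came from pools of about 20 embryos. There were 7 independent experiments, here called batches 1 to 6 and 8 after the replicate numbers in the sample titles. Each had 1 ethanol and 1 control pool, each pool on its own array. The study's methods mention embryos from a single breeding pair per experiment as a possible reason for differences between batches.

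Protein synthesis begins when initiation factors (eIFs) bring the initiator tRNA, the mRNA cap and the small ribosomal subunit together. Elongation factors (eEFs) then deliver each charged tRNA and move the ribosome forward. The synthetases load each tRNA with its amino acid, in the cytosol or in mitochondria. In the early zebrafish embryo much of this machinery is supplied as maternal mRNA, and transcription of the embryo's own genome has begun well before gastrulation.

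Expression was given as MAS5 signal, a linear fluorescence value in arbitrary units, and a signal of 1 probe set cannot be set against that of another. Testing required a signal of 200 or more on 3 or more of the 7 ethanol arrays or of the 7 control arrays, and 77 of the 85 genes met this. Of the 77, 76 passed in both treatments and eef1a1l3 passed in ethanol treated embryos only. The other 8 were eif3eb, eif3hb, eef1a1a, eef1a1b, eef2l2, eef2k, fars2 and rars2, whose mean signals lay between 50.7 and 123. A change is the log2 fold change of ethanol over control embryos within batches from limma, with its standard error (SE), and a gene was called at an adjusted p of 0.10 or below, adjusted by the Benjamini-Hochberg method over all 9240 probe sets tested.

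The authors had scaled all 14 arrays to a target of 1000, so a similar overall brightness was set in advance. Median signals still ran from 218 to 294 in ethanol treated and from 213 to 280 in control embryos. The gastrula marker list was present (12 of 12 genes passed the signal minimum), and 4 of 6 measured markers of later tissues stayed below 200 on every array. The yolk syncytial layer is the extraembryonic layer of the yolk cell that holds the yolk syncytial nuclei. Over all tested probe sets, 2% were called lower and 49.8% were above 0. Of 11 tested markers of this layer, 9 were called lower and none was above 0 (median change -1.07). Their summed signal, with mxtx2 included, was 43131 to 75605 in ethanol treated and 61426 to 95984 in control embryos, and none of them was at 0. Most of this sum came from the brightest marker, apoc1 (mean signal 41355), which was not called (-0.20, adjusted p = 0.183 by limma). The marker hnf4a (-0.05) was not called either, and mxtx2, too dim to be tested, was higher in 4 of 7 batches. The 3' to 5' signal ratio of the GAPDH control probes, a measure of RNA or labelling quality, was higher in ethanol treated embryos in 6 of 7 batches, and that of the acta1 probes in 5 of 7. Most of these signals lay below 200 (GAPDH 3' signal 159 to 767 in ethanol treated and 9.40 to 271 in control embryos), so the size of the ratios is poorly measured, and the study's methods state high RNA integrity for all samples. The part of the yolk syncytial layer or of these ratios in the results was not tested. In whole embryos, less of a tissue or cell type and less RNA within it cannot be told apart.

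Of the 77 tested genes of the translation machinery, 3 passed the test. That is close to the share over all tested probe sets, of which 4.36% were called in either direction. Most synthetases were slightly higher in ethanol treated embryos (15 of 20 above 0) and most factors slightly lower (42 of 57 below 0). Over all tested probe sets 49.8% were above and 50.2% below 0. Many values of both classes lay within 1 SE of 0, those of the 3 tested mitochondrial synthetases among them. Among the 20 tested synthetases, 2 rose (aars1 and nars1) and none fell, where 2.36% of all tested probe sets were called higher and 2% lower. Among the 57 tested factors, 1 fell (eif3i) and none rose. The changes of the 3 called genes were small, between 1.18-fold and 1.30-fold, and none of the 3 calls held under the 2-way ANOVA model of the study's methods, which does not share spread between genes, run here with the signal minimum and Benjamini-Hochberg adjustment given above (adjusted p = 0.182 for aars1, 0.329 for nars1 and 0.183 for eif3i by limma without moderation). No member, called or not, had signals in ethanol treated embryos that lay wholly above or below those of control embryos, and 0.357% of all tested probe sets had. Before adjustment, 4 synthetases were higher and 0 lower at limma's p of 0.05, and 2 factors were higher and 7 lower, against 7.51% higher and 7.45% lower over all tested probe sets.

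**Figure D1:**
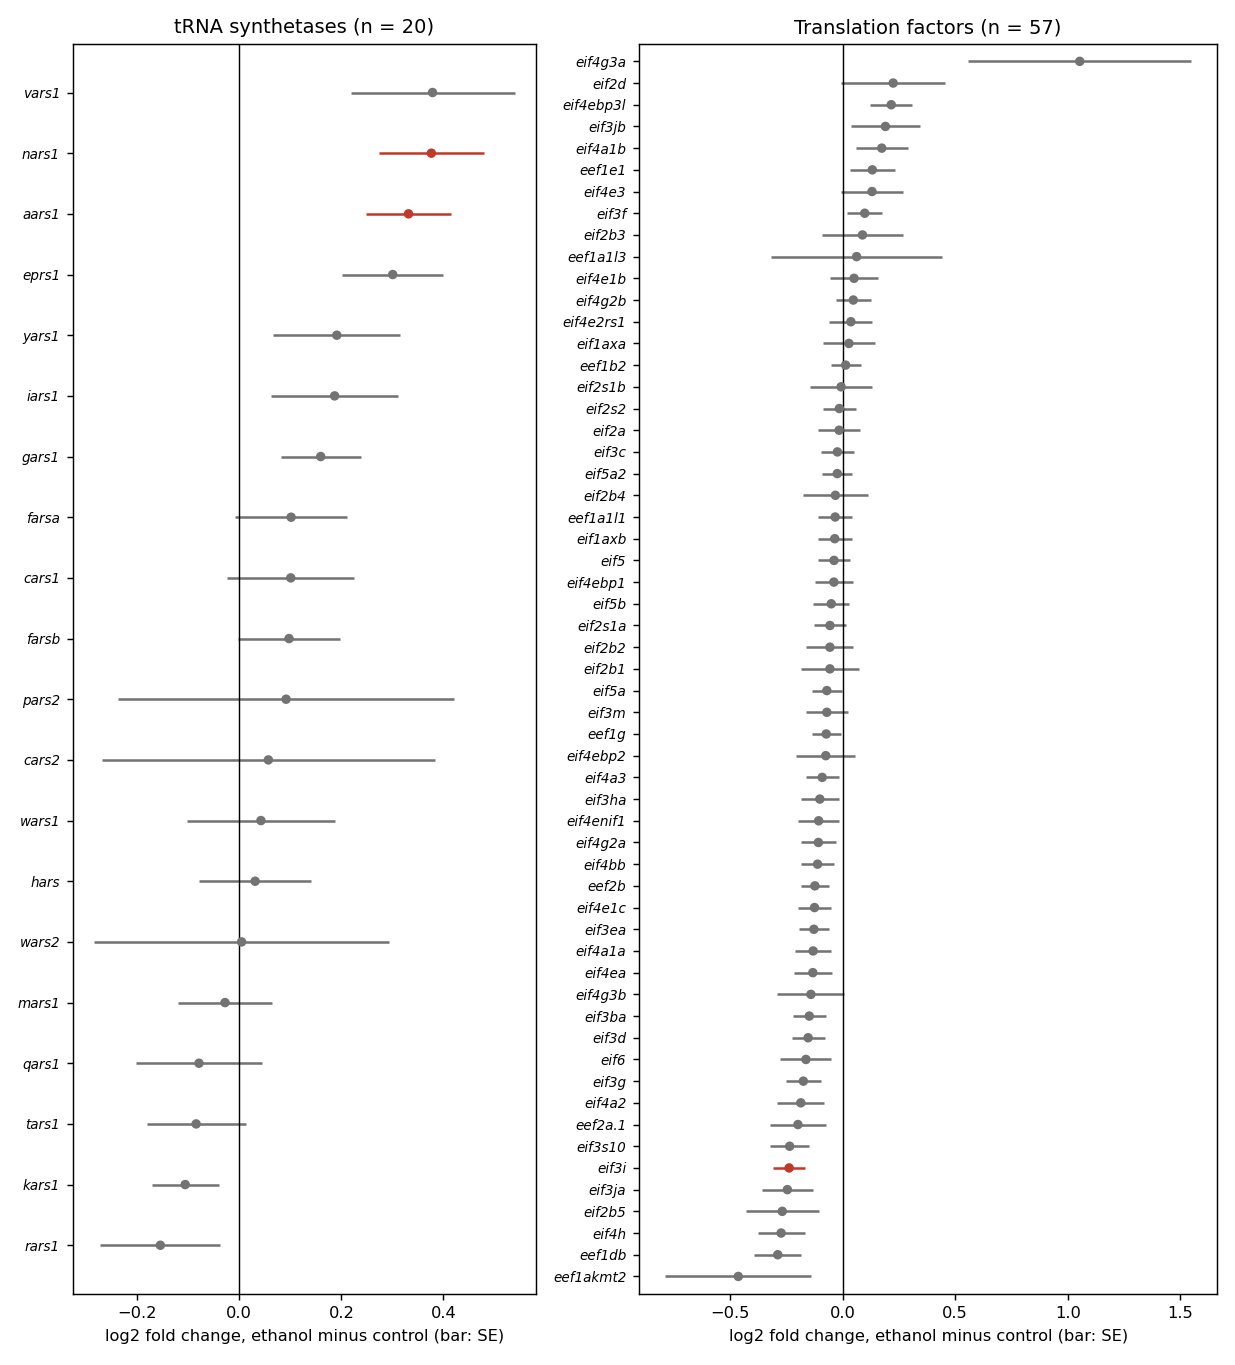
Change of each tested gene (log2 fold change, ethanol minus control, x axis) for 20 tRNA synthetases on the left and 57 translation factors on the right. Points are limma estimates over 7 batches, bars are 1 SE, and red marks the 3 called genes. Most synthetases lie above 0 and most factors below 0, with the x axes on different scales.

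The alanyl-tRNA synthetase gene aars1, which loads alanine, had signals of 5354 to 7261 in ethanol treated embryos (median 5796), against 4013 to 5447 in control embryos (median 4868). Only the lowest ethanol pool lay within the control range, and the ethanol pool of each batch exceeded its control pool. The rise was 0.33 (SE 0.083, adjusted p = 0.0393 by limma), and the 7 batches gave values of 0.05 to 0.64. Across all tested probe sets, 3.15% were higher in 7 of 7 batches. Without batch 5 or batch 8 the gene no longer passed (adjusted p = 0.121 and 0.108).

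The asparaginyl-tRNA synthetase gene nars1 had signals of 4958 to 6720 in ethanol treated embryos (median 5626) and of 3046 to 5751 in control embryos (median 4453). The 2 treatments overlapped widely, as control pools 1, 3 and 5 each exceeded 4 of the 7 ethanol pools. The rise was 0.38 (SE 0.104, adjusted p = 0.0628 by limma). It rested on batches 2, 4, 5, 6 and 8 (0.23 to 0.97), and in batches 1 and 3 the pools differed by -0.06 and 0.00. Without batch 4, which had the largest difference, the change was 0.28 and was not called (adjusted p = 0.192), and it was also lost without any 1 of batches 2, 5, 6 and 8.

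Neither the bifunctional glutamyl-prolyl synthetase gene eprs1 nor the valyl synthetase gene vars1 passed, although their changes were of similar size. eprs1 had signals of 1595 to 2733 in ethanol treated embryos (median 2193) and 1383 to 2059 in control embryos (median 1780). Its ethanol pool was the higher in 6 of 7 batches, with the opposite order in batch 5 (change 0.30, SE 0.099, adjusted p = 0.135 by limma). Leaving out batch 5 necessarily raised the change, to 0.38, and it then passed (adjusted p = 0.0716 by limma). vars1 ranged from 358 to 726 in ethanol treated embryos (median 607) and from 257 to 786 in control embryos (median 415), with a change of 0.38 (SE 0.161, adjusted p = 0.263). Here the single highest signal of all 14 arrays was a control pool. The glycyl synthetase gene gars1 was at 3224 to 4421 in ethanol treated embryos and 3221 to 3751 in control embryos, higher in 6 of 7 batches (0.16, SE 0.079, adjusted p = 0.353).

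**Figure D2:**
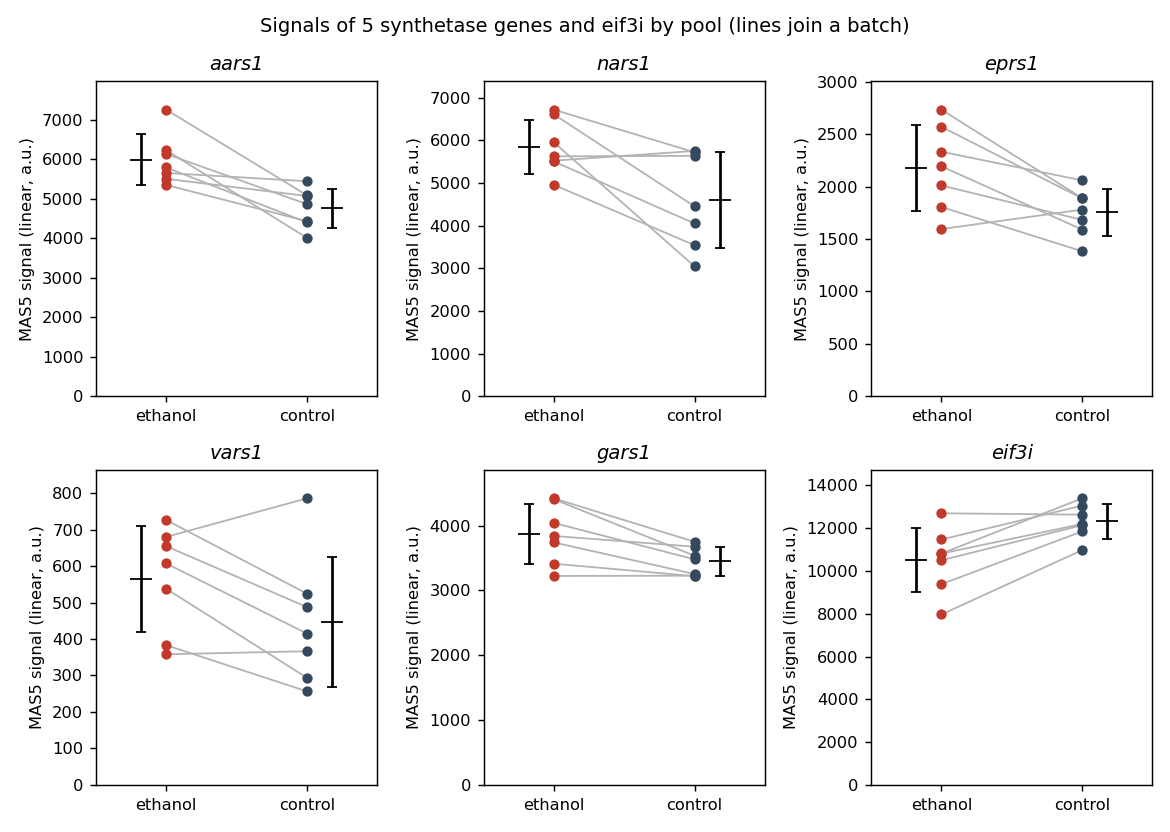
MAS5 signal (linear, arbitrary units, y axis from 0) of aars1, nars1, eprs1, vars1, gars1 and eif3i in the 7 ethanol pools (red, left) and the 7 control pools (blue, right). Grey lines join the pools of a batch, and the black marks are the mean and SD. All 7 lines fall to the control side for aars1 and 6 of 7 rise to it for eif3i, while the signals of the treatments overlap in every panel.

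The opposite sign was seen for 5 of the 17 synthetases counted here as cytosolic, none of them called. The lysyl synthetase gene kars1 had 8229 to 13390 in ethanol treated embryos (median 11426) and 9713 to 13584 in control embryos (median 12064). Its ethanol pool was below its control pool in all 7 batches, as was that of 2.97% of all tested probe sets, but the differences were small (-0.11, SE 0.065, adjusted p = 0.479). The arginyl (rars1, -0.15), threonyl (tars1, -0.08), glutaminyl (qars1, -0.08) and methionyl (mars1, -0.03) synthetase genes had changes within 1.5 SE of 0. Of the other uncalled synthetases above 0, the tyrosyl gene yars1 (0.19, SE 0.125) and the isoleucyl gene iars1 (0.19, SE 0.124) were the largest. For yars1 the sign differed between its probe sets, one of the other 2 being at -0.06.

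In vertebrates several synthetases are held together in a multi-synthetase complex, and the rest act on their own or with other partners. Of the members that belong to the complex in mammals, 6 were tested (eprs1, iars1, kars1, mars1, qars1 and rars1), and 2 of them were above 0 (median -0.05). Of the 11 other tested cytosolic synthetases, 10 were above 0 (median 0.10), and both called genes were among these. The split was made after the values were seen, and the difference between the 2 sets was not tested. The scaffold gene aimp2 was at 0.27 (SE 0.096, adjusted p = 0.173 by limma), with the ethanol pool higher in 6 of 7 batches. The scaffold gene aimp1a was at -0.04. eef1e1, counted with the factors by its symbol although it is a scaffold protein of the same complex in mammals, was at 0.13 (SE 0.0996) and higher in 6 of 7 batches.

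The 5 synthetase genes counted here as mitochondrial, those whose symbol ends in 2, were dim, and little can be read from them at this signal. fars2 and rars2 did not reach the minimum. The 3 tested genes cars2, pars2 and wars2 had changes of 0.06, 0.09 and 0.00, each with an SE between 0.290 and 0.330. Signals of cars2 were 47.1 to 346 in ethanol treated and 114 to 277 in control embryos. Of the ethanol pools, 3 lay above every control pool and 1 lay below every control pool. Of 5 tested mitochondrial translation factors outside the rule none was called by limma and 0 had an unadjusted p under 0.05, and the elongation factor gene tufm was at 0.15 (SE 0.074, adjusted p = 0.374).

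Among the factors, the 12 tested subunit genes of eIF3, the large scaffold that joins the mRNA to the small ribosomal subunit, were mostly lower in ethanol treated embryos. Of these, 10 were below 0, as were 50.2% of all tested probe sets. The median of the 12 was -0.14, and that over all tested probe sets was 0.00. The count of 10 held under each scaling tried, and was 8 without batch 5. At an unadjusted p of 0.05, 5 of the 12 were lower, as were 7.45% of all tested probe sets. Of the 12, 4 were lower in 6 or 7 of the 7 batches, which 11.1% of all tested probe sets were. Only eif3i passed the adjusted threshold.

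The gene eif3i encodes a small subunit of eIF3 with WD40 repeats. Its signals were 7966 to 12693 in ethanol treated embryos (median 10810) and 10970 to 13388 in control embryos (median 12192). The 5 lowest ethanol pools lay below every control pool, and the remaining 2 lay within the control range. The gene fell by 0.24 on the log2 scale (SE 0.071, adjusted p = 0.0865 by limma), with the ethanol pool lower in 6 of 7 batches and level with control in batch 6 (0.01). The call was lost when any 1 batch other than 6 was left out, with adjusted p of 0.116 to 0.25.

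Other core eIF3 subunits had values of the same sign without a call. eif3s10, which encodes the largest subunit (eIF3a), had 6910 to 11354 in ethanol treated embryos (median 9887) and 8704 to 12158 in control embryos (median 10985). Its change was -0.24 (SE 0.088, adjusted p = 0.194 by limma), and -0.15 without batch 4. eif3ja, for the loosely bound subunit j, was at -0.25 (SE 0.113) and ranged from -0.83 in batch 4 to 0.38 in batch 1. In batch 1 the ethanol pool was the higher for both genes, so without that batch their changes were necessarily further from 0. eif3ja was then at -0.35 (adjusted p = 0.0820 by limma) and eif3s10 at -0.29 (adjusted p = 0.0965). The genes eif3g (-0.18), eif3d (-0.15), eif3ba (-0.15) and eif3ea (-0.13) were closer to 0. Nearer still were eif3ha (-0.10, SE 0.086), eif3m (-0.07, SE 0.093) and eif3c (-0.02, SE 0.073). The 2 above 0 were eif3f (0.10, SE 0.077) and eif3jb (0.19, SE 0.154), the second copy of subunit j. The paralogs eif3eb and eif3hb were below the minimum.

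**Figure D3:**
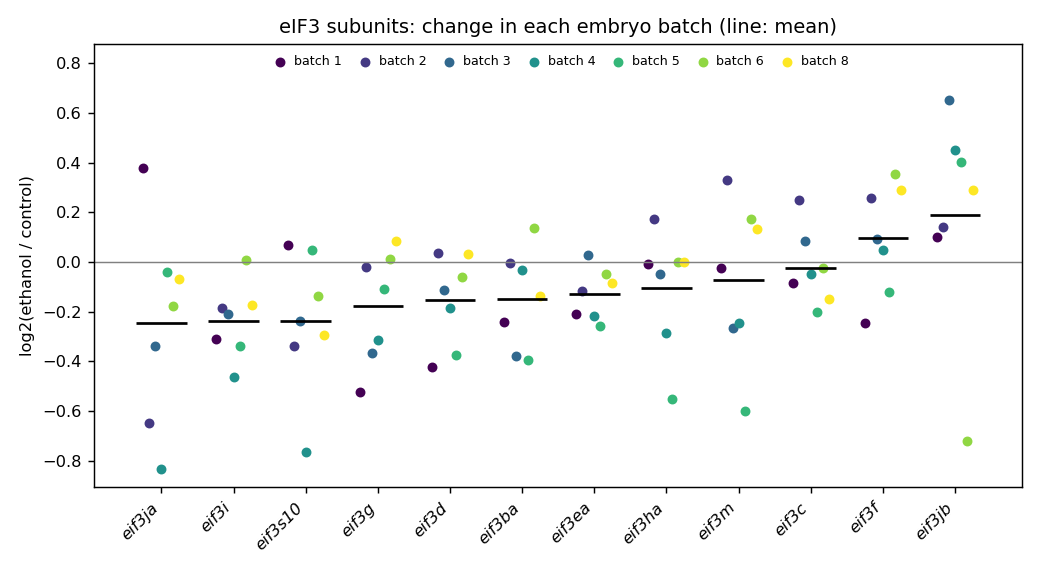
Log2 ratio of ethanol over control signal in each batch (y axis) for the 12 tested eIF3 subunit genes (x axis, ordered by mean). Coloured points are the 7 batches and black lines their means. For eif3i 6 of 7 points lie below 0, whereas eif3ja spans -0.83 to 0.38.

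None of the remaining initiation factors was called by limma, and their group medians ran from -0.19 (eIF4B and eIF4H, 2 genes) to -0.02 (eIF2, 5 genes). At an unadjusted p of 0.05, eif4h was lower, and eif4ebp3l and eif4g3a were higher. In the group of eIF1A, eIF5, eIF5B and eIF6 (genes eif1axa, eif1axb, eif5, eif5b and eif6), changes ran from -0.16 to 0.03 and none was called. The brightest probe sets of eif1axa and of eif5b had values of opposite sign to the dimmest ones (-0.03 and 0.04 for the dimmest), and those of eif1axb also lay on both sides of 0. Genes of eIF2, which carries the initiator tRNA, and of the related tRNA-delivery factors eif2a and eif2d ran from -0.06 (eif2s1a) to 0.22 (eif2d, SE 0.232). eif2d stood at 264 to 676 in ethanol treated and 179 to 788 in control embryos, and without batch 1 its change was -0.06.

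eIF2B recharges eIF2 with GTP and is the target of the eIF2 kinase pathway. Of its 5 subunit genes 4 were below 0. The largest value was that of the catalytic subunit eif2b5, with 358 to 548 in ethanol treated embryos (median 418) and 439 to 685 in control embryos (median 496). The 4 lowest ethanol pools were below every control pool, but the change of -0.27 had an SE of 0.163 (adjusted p = 0.471 by limma). eif2b3, a further subunit, was at 0.09 and changed sign when batch 3 or batch 5 was left out.

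The helicase eIF4A and its partners eIF4B and eIF4H unwind the leader of the mRNA. eif4h had 4525 to 6931 in ethanol treated embryos (median 5744) and 5636 to 8607 in control embryos (median 6883). Its change of -0.27 (SE 0.105, adjusted p = 0.207 by limma) was not called with all batches. Batch 1 had its largest value of opposite sign (0.27). Without that batch the change was necessarily further from 0, at -0.37, and was called (adjusted p = 0.0519). eif4bb was at -0.11. Of the helicase genes, eif4a1a was at -0.13, eif4a2 at -0.19 and eif4a1b at 0.17 (SE 0.116).

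At the cap itself, eIF4E binds the mRNA, eIF4G bridges it to the ribosome, and the 4E-binding proteins hold eIF4E back. Among 9 genes of eIF4E and its binding proteins none was called and 5 were below 0. The binding protein gene eif4ebp3l had the largest change, with 8407 to 14047 in ethanol treated embryos (median 11212) and 6975 to 11700 in control embryos (median 9963). It was higher in 6 of 7 batches (0.22, SE 0.094, adjusted p = 0.277 by limma). Leaving out batch 3, the only batch with the opposite order (-0.42), necessarily raised the change, to 0.32, and it was then called (adjusted p = 0.0504). eif4ea, a gene of the cap-binding protein, was at -0.13 and eif4e3, a divergent relative, at 0.13.

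The largest change of any member was that of eif4g3a (1.05, SE 0.495), and it came from 3 dim control pools. In ethanol treated embryos its signals in batches 1 to 6 and 8 were 245, 182, 202, 415, 265, 217 and 151, and in control embryos 265, 31.4, 245, 129, 19.5, 238 and 162. The ethanol pool was higher in only 3 of 7 batches, 2, 4 and 5. The adjusted p was 0.322 by limma, and with 100 added to every signal the change was 0.50. Its paralog eif4g3b was at -0.14, and eif4g2a was at -0.11 by its brightest probe set. The dimmer probe set of eif4g2a was at -0.29 (SE 0.116, adjusted p = 0.225 by limma).

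No elongation factor gene was called by limma. By symbol, 6 tested genes were grouped as elongation factor 1, the scaffold gene eef1e1 among them. At limma's unadjusted p of 0.05, 1 of these was lower (eef1db) and 0 were higher, with a median of -0.01. The 2 tested genes of elongation factor 2 were both below 0 (median -0.16). eef1a1l1, which encodes the eEF1A that delivers charged tRNA in the early embryo, had 106458 to 138557 in ethanol treated embryos (median 130211) and 115774 to 163167 in control embryos (median 126284). The treatments overlapped throughout (-0.03, SE 0.075). eef2b, for the translocase eEF2, was at 44293 to 61269 in ethanol treated embryos and 47409 to 63050 in control embryos, lower in 6 of 7 batches (-0.12, SE 0.062, adjusted p = 0.360 by limma). Its paralog eef2a.1 was at -0.20 and at -0.08 without batch 4. eif5a2 and eif5a, which encode the hypusine-bearing factor that relieves stalled ribosomes, were at -0.02 and -0.07 by their brightest probe sets. Their dimmer probe sets were at -0.10 (SE 0.072) and -0.28 (SE 0.106, adjusted p = 0.197 by limma).

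Of the exchange factor subunits that recharge eEF1A, eef1db had the most negative change and varied most between batches. In ethanol treated embryos it was at 1648, 3323, 1335, 1221, 1535, 3307 and 2075 in batches 1 to 6 and 8, and in control embryos at 2236, 4163, 1225, 1616, 1886, 3239 and 3395. Both pools of batches 2 and 6 were high, and both of batches 3, 4 and 5 were low. The change was -0.29 (SE 0.103, adjusted p = 0.174 by limma), with the ethanol pool lower in 5 of 7 batches. The subunit gene eef1g was at -0.07. eef1akmt2, a methyltransferase of eEF1A, had the most negative value (-0.46, SE 0.325), which was -0.21 without batch 6, where the ethanol pool was at 47.7.

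Between embryo batches 17 of the 77 members (22.1%) were called, and between treatments 3. Both were close to the shares over all tested probe sets. By limma's F test over the 7 batches, 22.3% of all tested probe sets differed between batches at an adjusted p of 0.10, and so did 6 of the 20 synthetases (30%) and 11 of the 57 factors (19.3%). Adjusted p for eef1db was 5.13e-05. The second lowest belonged to eif4e1b, an oocyte and germline form of the cap-binding protein, with an adjusted p of 0.0014. Its signals in batches 2 and 6 were 854 and 951 in ethanol treated embryos and 826 and 777 in control embryos, against 1318 to 1836 and 1367 to 1786 in the other batches. These 2 batches, low for eif4e1b, were high for eef1db, but control pool 8 was high for both genes (3395 for eef1db and 1786 for eif4e1b). By treatment eif4e1b was at 0.05 (SE 0.105).

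Set against each other, the 20 synthetases had a median change of 0.09 and the 57 factors one of -0.06, a difference of 0.15. Above 0 were 15 of the 20 synthetases (75%), and below 0 were 42 of the 57 factors (73.7%), where all tested probe sets were 49.8% above and 50.2% below. Within batches the median of the synthetases exceeded that of the factors in 7 of 7, by 0.02, 0.06, 0.32, 0.36, 0.32, 0.08 and 0.02 in batches 1 to 6 and 8 (mean 0.17, SD 0.16). The difference was large in batches 3, 4 and 5 and near 0 in batches 1, 2, 6 and 8. Synthetase medians themselves were -0.05 in batch 1 and -0.03 in batch 8, so the synthetases were not higher with ethanol in every batch. Genes measured on the same arrays are not independent, and no test was made over the members as a list.

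**Figure D4:**
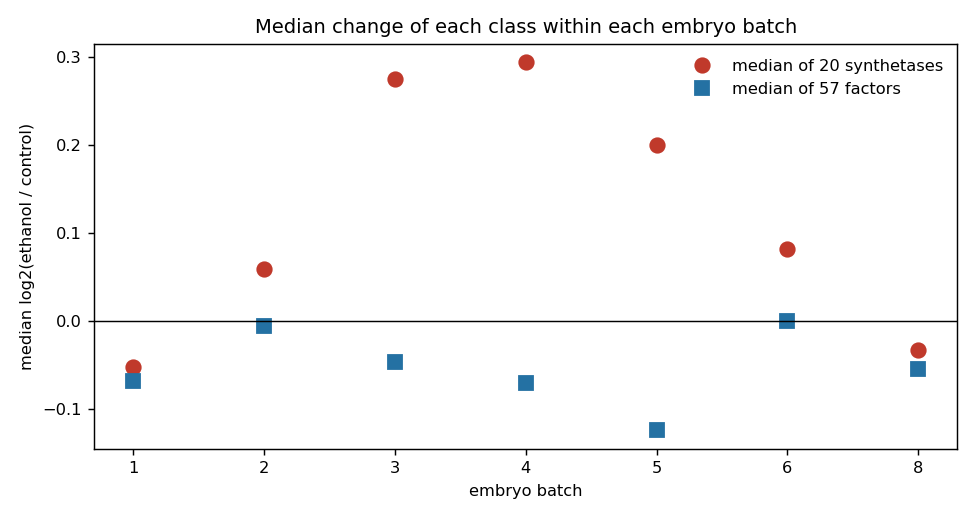
Median log2 ratio of ethanol over control signal (y axis) of the 20 synthetases (red circles) and the 57 factors (blue squares) in each embryo batch (x axis). The synthetase median is the higher in all 7 batches, by 0.36 at most in batch 4 and by 0.02 at least in batches 1 and 8.

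The other genes around this machinery were taken from lists by function. Of the 17 listed genes of the amino acid and integrated stress response, the program that is switched on when eIF2 is phosphorylated, 9 were tested, 3 rose (2.36% of all tested probe sets were called higher), none fell and the median was 0.14. At an unadjusted p of 0.05, 4 of the 9 were higher and 0 lower (7.51% and 7.45% of all tested probe sets). The 3 were the asparagine synthetase gene asns (0.81) and the serine synthesis genes psat1 (0.80) and phgdh (0.51). asns had 204 to 504 in ethanol treated embryos (median 438) and 182 to 310 in control embryos (median 209), so that 6 of the 7 ethanol pools exceeded every control pool (SE 0.236, adjusted p = 0.0819 by limma). It was lost when any 1 of batches 2, 3, 4, 5, 6 and 8 was left out (adjusted p = 0.141 to 0.226), and phgdh was lost without batch 5 (adjusted p = 0.106), while none of the 3 calls held under the 2-way ANOVA model. Of the genes not called, shmt2 was at 0.37 (SE 0.168) and was the other gene higher at the unadjusted p. ppp1r15a was at 0.14 (SE 0.158) and the kinase gene eif2ak3 at -0.08 (SE 0.158). The transcription factor genes of the program were at 0.00 (atf4a, SE 0.078) and -0.17 (atf4b, SE 0.118), and its target chac1 was at -0.15. These are RNA values, and phosphorylation of eIF2 was not measured. None of the 5 termination and recycling factors, 7 partners of the cap complex and 3 translation kinases that were tested was called by limma. At an unadjusted p of 0.05 the cap complex partners had 1 gene higher and 1 lower, the kinases 1 higher and 0 lower, and the termination factors 0.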

How the data were processed

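RNA from 14 pools had been labelled and hybridized to the Affymetrix Zebrafish Genome Array by the authors in 1 batch. The deposited values are intensities, MAS5 signals that the authors scaled to a target of 1000 per array, and they were used without further normalization. No counts or depth exist for arrays, and their number limits the precision. Of 15617 probe sets, 10802 had 1 symbol in the platform annotation, 135 several and 4680 none, and 1 symbol was updated. Log2 signals were fitted with limma 3.58.1 (R 4.3.3) over the 9240 probe sets at 200 or more on at least 3 arrays of a treatment, with treatment and batch as terms, a mean-variance trend and Benjamini-Hochberg adjustment. The detection calls that the authors filtered on were not used here. Other signal minimums, scalings, offsets, weights, batch terms and variance estimates, and leaving out each batch, were tried. The authors' methods name a 2-way ANOVA with batch as a random effect, which for these balanced pairs equals the fit without moderation. The authors adjusted by Storey q-values, whereas all adjusted p here are Benjamini-Hochberg values.

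Pools with the same replicate number in their titles were taken to come from the same experiment. Their deviations correlated in all 7 pairs (r of 0.11 to 0.38). Ethanol pool 1, however, correlated more with another control pool (r of 0.17) than with its own (0.11). Batch was kept as a block, as the study's methods also fit embryo batch. Genes named were those called, those with the largest changes or highest signals of each class or role group, and those whose probe sets disagreed. Other eIF3 genes, eif4e1b and the split by the synthetase complex were chosen after their values were seen, and the test between batches was added later. The members and lists were chosen with earlier results of these data known. The fit was tested on simulated data. Sequences and coordinates were not used here, nor were probe sets annotated to several genes.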

Additional observations from a re-analysis of the deposited data

Results flagged for a closer look

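In 7 of the 120 groups of 7 pools searched (60 named genes in 2 treatments), a single pool stood apart from the other 6 on the log2 scale, its gap to the nearest exceeding Dixon's critical share of the group's range. Chance flags about 1 in 20 groups. The ethanol pool of batch 4 was low for cars2 (47.1 against 170 to 346, gap 0.642 of the range). The ethanol pool of batch 6 was low for eef1akmt2 (47.7 against 161 to 299, gap 0.662) and for wars2 (118 against 206 to 306, gap 0.583). These 3 genes were dim in every pool. The control pool of batch 4 was high for eef2a.1 (1796 against 1148 to 1316, gap 0.694). It was low for mars1 (1248 against 1999 to 2854, gap 0.570) and for eif3ba (14239 against 18266 to 21057, gap 0.637). The control pool of batch 3 was low for eif4g3b (442 against 613 to 759, gap 0.604).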

How the results depend on the processing

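The median changes of synthetases and of factors and their difference kept their direction under every alternative tried. Alternatives that altered only the batch term, the trend or the moderation left the fold changes as they were, so they could not change a direction. With 1 batch left out, the 2 medians and their difference ranged over 0.02 to 0.12, -0.08 to -0.04 and 0.08 to 0.20. Calls did not last as well, although with array weights and with a signal minimum of 400 there were 3 synthetases called higher. The minimum of 400 left 17 synthetases, 54 factors and 6797 probe sets tested. Shares of all probe sets called under these 2 settings are not given here, so the 3 cannot be read as a stronger result. With no replicate block, 0 synthetases were called higher and 0 factors lower, and over all probe sets 25 were called higher and 3 lower. With the replicate block as a random effect these were 1, 0, 104 and 73. Without the trend they were 0, 0, 29 and 14, and without moderation, the model of the methods' ANOVA, 0, 0, 29 and 16. At the methods' thresholds (1.5-fold and p of 0.001) that ANOVA gave 27 probe sets and 0 members. At its unadjusted p of 0.05 it gave 5 synthetases higher and 1 lower, and 0 factors higher and 4 lower. The share of all tested probe sets at that p was not counted for this ANOVA. These 4 counts therefore cannot be set against a background. The count of factors called by limma was 0 with no signal minimum, with a minimum of 100 and after median centring. It was 2 with array weights, again without a share over all probe sets beside it. With 1 batch left out, synthetases called higher were 0 to 2, factors lower 0 to 3, factors higher 0 to 1, and probe sets 119 to 234 higher and 89 to 233 lower.

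Of the named genes, aars1 lost its call without the block (adjusted p = 0.285 by limma), without the trend (0.20) and without moderation (0.182), and kept it with batch as a random effect. Genes that changed sign were not called with all batches. With 1 batch left out, the range was -0.107 to 0.279 for cars2, -0.0815 to 0.0322 for eef1a1l1, -0.0206 to 0.121 for eif1axa and -0.0667 to 0.0151 for eif1axb. It was -0.0570 to 0.0420 for eif2a, -0.127 to 0.00152 for eif2b1, -0.0154 to 0.252 for eif2b3, -0.0581 to 0.389 for eif2d and -0.0677 to 0.00615 for eif5a2. It was -0.0879 to 0.00975 for mars1, -0.110 to 0.310 for pars2, -0.153 to 0.0235 for qars1 and -0.185 to 0.155 for wars2. The dimmest probe set gave -0.0325 for eif1axa and 0.0386 for eif5b. Quantile normalization gave 0.00665 for eif5a2 and -0.047 for wars2, and an added 100 gave -0.0118 for wars2. The cause was not tested. The median SE was 0.099 over the tested members (0.114 for synthetases and 0.0915 for factors) and 0.14 over all tested probe sets.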
